A study of Homo sapiens with 14 samples.

Results

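The genes described here are 8 classic targets of the unfolded protein response, chosen by name: HSPA5, XBP1, HERPUD1, SDF2L1, DNAJB9, HSP90B1, PDIA4 and CALR. Of these, 7 were matched to a row among the 12425 genes of the deposited table. DNAJB9, a co-chaperone of the endoplasmic reticulum (ER), was not matched to a row, so its RNAPII was not analysed here. RNA polymerase II (RNAPII) had been mapped by chromatin immunoprecipitation and sequencing in BJ hTERT cells, human foreskin fibroblasts immortalised with telomerase. An antibody against the Rpb1 N terminus gave total RNAPII, and a second one gave the form that carries phosphate on serine 2 of the C-terminal domain (Ser2) and travels along gene bodies. The study asked how blocking ATR, a kinase of the replication stress response, affects transcription during S phase. For each antibody there was 1 library at 14 h, headed CTR in the deposited table with no treatment named. Cells given an ATR inhibitor (ATRi) and cells given the vehicle DMSO had 1 library each at 16, 19 and 22 h. That makes 14 libraries with 1 library per group. The inhibitor and the event that the hours count from are not given in the sources used here.

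When unfolded proteins gather in the ER, the sensors IRE1, ATF6 and PERK start the unfolded protein response. IRE1 splices the XBP1 mRNA so that it encodes an active transcription factor, and ATF6 is cut in the Golgi to release another. Both factors act on the ER stress response element (ERSE) of genes for ER chaperones, folding enzymes and components of ER-associated degradation. Fibroblasts secrete large amounts of collagen and other matrix proteins, which are folded with the help of these chaperones. Genome positions are those of hg38. HSPA5 (ENSG00000044574, chromosome 9, 125234853 to 125241330, minus strand) encodes BiP, the main Hsp70 of the ER. HSP90B1 (ENSG00000166598, chromosome 12, 103930107 to 103953645, plus strand) encodes GRP94, the Hsp90 of the ER. CALR (ENSG00000179218, chromosome 19, 12938578 to 12944489, plus strand) encodes calreticulin, a lectin chaperone that binds calcium. XBP1 (ENSG00000100219, chromosome 22, 28794555 to 28800597, minus strand) is the factor itself. HERPUD1 (ENSG00000051108, chromosome 16, 56932048 to 56944863, plus strand) encodes a membrane protein of the degradation complex. SDF2L1 (ENSG00000128228, chromosome 22, 21642261 to 21644298, plus strand) encodes a partner of ER J-domain co-chaperones. PDIA4 (ENSG00000155660, chromosome 7, 149003062 to 149028641, minus strand) encodes a protein disulfide isomerase.

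The promoters of the genes differ in whether they hold these elements, and 5 of them are shown. HSPA5, XBP1, HSP90B1 and HERPUD1 had the 4 largest Ser2 changes between 19 h and 16 h among the 7. PDIA4 had the smallest and holds no element in the window searched. CALR and SDF2L1, which also hold an element, are not shown. The order was another in total RNAPII at 22 h against 16 h. There PDIA4 (0.64 on the log2 scale) lay above CALR (0.37), XBP1 (0.35) and HERPUD1 (0.15). It lay below HSP90B1 (0.79), HSPA5 (0.69) and SDF2L1 (0.68). Whether the elements go with the size of the change was not tested. Each line gives 250 bases ending at the RefSeq transcription start, 5′ to 3′ on the gene's own strand, from the GRCh38.p14 table of RefSeq promoters. Capitals mark ERSE, which is CCAAT, 9 other bases and CCACG, and ERSE-II, which is ATTGG, 1 base and CCACG, on either strand. HSPA5 lies at chr9:125241344-125241593 (minus), XBP1 at chr22:28800570-28800819 (minus), HSP90B1 at chr12:103930160-103930409 (plus), HERPUD1 at chr16:56931892-56932141 (plus) and PDIA4 at chr7:149028491-149028740 (minus).
HSPA5: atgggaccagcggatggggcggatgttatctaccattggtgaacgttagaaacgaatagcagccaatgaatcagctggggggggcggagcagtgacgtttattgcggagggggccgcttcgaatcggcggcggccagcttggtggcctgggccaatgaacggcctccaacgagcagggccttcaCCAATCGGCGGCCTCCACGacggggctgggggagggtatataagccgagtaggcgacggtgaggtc
XBP1: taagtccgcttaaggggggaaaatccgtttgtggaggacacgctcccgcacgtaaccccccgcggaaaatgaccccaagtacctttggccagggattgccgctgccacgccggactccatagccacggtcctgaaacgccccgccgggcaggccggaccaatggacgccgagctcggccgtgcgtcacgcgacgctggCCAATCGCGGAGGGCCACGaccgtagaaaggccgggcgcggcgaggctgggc
HSP90B1: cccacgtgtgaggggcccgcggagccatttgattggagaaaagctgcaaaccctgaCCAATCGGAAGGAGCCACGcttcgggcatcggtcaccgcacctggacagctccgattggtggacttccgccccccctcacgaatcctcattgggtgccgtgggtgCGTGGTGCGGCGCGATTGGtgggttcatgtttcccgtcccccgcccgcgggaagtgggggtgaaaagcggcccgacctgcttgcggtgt
HERPUD1: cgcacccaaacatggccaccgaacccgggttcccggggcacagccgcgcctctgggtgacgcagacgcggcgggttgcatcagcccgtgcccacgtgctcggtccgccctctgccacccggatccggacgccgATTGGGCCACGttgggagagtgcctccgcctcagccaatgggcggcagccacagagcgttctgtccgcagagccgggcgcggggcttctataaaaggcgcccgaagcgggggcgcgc
PDIA4: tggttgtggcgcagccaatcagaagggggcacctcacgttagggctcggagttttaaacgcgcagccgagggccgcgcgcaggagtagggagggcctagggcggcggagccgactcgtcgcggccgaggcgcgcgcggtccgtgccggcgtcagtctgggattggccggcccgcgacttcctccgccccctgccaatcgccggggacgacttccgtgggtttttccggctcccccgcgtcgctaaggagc

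HSPA5 held 1 ERSE at bases -66 to -48 from the start and XBP1 held 1 at -52 to -34. HSP90B1 held 2, at -194 to -176 and, on the opposite strand, at -89 to -71. HERPUD1 held an ERSE-II at -117 to -107. In CALR the ERSE was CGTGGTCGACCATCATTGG at -225 to -207, read on the opposite strand, and in SDF2L1 the ERSE-II was CGTGGACCAAT at -188 to -178, likewise on the opposite strand. PDIA4 and DNAJB9 held neither. XBP1 and PDIA4 have 2 RefSeq entries each, and only the most upstream start of each gene was scored here. Thus 6 of 8 promoters (75.0%) carried ERSE or ERSE-II within 250 bases before and 50 bases after the start, against 15 of 8589 promoters (0.175%) of other named genes of the table and 46 of all 35116 RefSeq promoters (0.131%). The shorter core TGACGTG of a further element (UPRE) was found in 0 of the 8 promoters, against 2.64% of the other genes of the table. With 1 mismatch allowed in CCACG, ERSE was found in 6 of the 8 and in 1.44% of the other genes of the table, and the added match in SDF2L1 overlapped its ERSE-II. These matches describe letters in the windows and not binding. The 8 genes were named as classic targets of this response, so the shares describe them and are no test. A window of 200 bases before the start left 3 promoters with ERSE in place of 4.

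**Figure D1:**
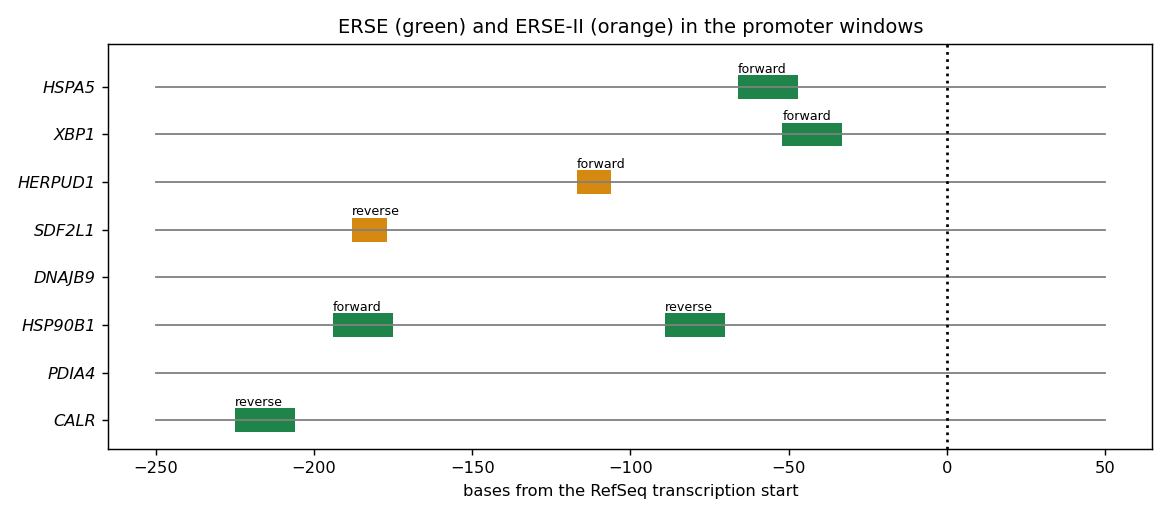
Positions of ERSE (green) and ERSE-II (orange) in the promoter windows of the 8 genes, in bases from the RefSeq transcription start (dotted line), with the strand of each match relative to the gene. HSPA5 and XBP1 carry theirs nearest to the start, HSP90B1 carries 2, and PDIA4 and DNAJB9 carry none.

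The libraries held 17181179 to 62368915 reads, recovered from the steps of the deposited values. Levels are the authors' RPM (reads per 1000000 reads), which count a gene from end to end, and rest on 38 to 2804 reads in these 7 genes. The share of reads in the listed nuclear genes ran from 35.8% to 72.0% and was highest at 19 h, so a change over all genes enters every difference between hours, and values relative to the median gene are given beside the deposited ones. Without spike-in values here, a change shared by all genes and the efficiency of the immunoprecipitation cannot be told apart. Chromatin came from many cells, so more RNAPII in each cell and more cells with RNAPII on the gene cannot be told apart either. The 9 fibroblast markers examined were all in the table and summed to 686 to 2183 RPM. Their gene medians ran from 0.995 to 19.1 RPM per kb of span. Of 5 keratinocyte markers, 1 was matched to a row (KRT14, 0.236 to 1.18 RPM, median 0.149 RPM per kb). Of 7 endothelial and blood markers, 1 was matched (VWF, 15.2 to 50.5 RPM, median 0.207 RPM per kb).

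Per kilobase of span, the densest of the genes in total RNAPII was XBP1, with a median of 5.00 RPM per kb over the 7 total libraries. HSPA5 (3.48), CALR (3.48) and HERPUD1 (3.32 RPM per kb) lay close together, followed by SDF2L1 (2.04), HSP90B1 (1.36) and PDIA4 (0.622 RPM per kb). The Ser2 densities had XBP1 first too (3.02 RPM per kb) and then HSPA5 (2.59), CALR (2.56), HERPUD1 (1.97), HSP90B1 (1.21), SDF2L1 (1.19) and PDIA4 (0.506 RPM per kb). XBP1 ranked between 329 and 631 of 12411 nuclear genes in the total libraries, while PDIA4 ranked between 5902 and 9931. Except for HSP90B1 and PDIA4, the medians of neighbours in this order were closer than the range of either gene across libraries: HSPA5 ranged over 2.54 to 6.30 and CALR over 2.86 to 5.67 RPM per kb in total RNAPII. PDIA4 ranged over 0.438 to 0.871 RPM per kb in total RNAPII, below the 0.959 to 2.24 RPM per kb of HSP90B1. The listed span of HSP90B1 runs to 103953645, past its RefSeq end at 103947926, and its RPM per kb is over the listed span. How far this moves its density was not tested. Part of some spans is shared. HSP90B1 shares 14.6% of its span with the listed gene UQCC6, which over its own whole span had 13.3, 32.3 and 21.2 RPM of Ser2 with ATRi and 11.7, 29.1 and 17.1 RPM with DMSO at 16, 19 and 22 h. The part of UQCC6 reads in the HSP90B1 values was not tested. HERPUD1 shares 8.31% with a nested listed gene that held 5.37% to 7.62% of its reads. The next listed gene begins 85 bases from XBP1, and had 17.5, 25.6 and 22.3 RPM of Ser2 with ATRi and 18.4, 24.0 and 22.0 RPM with DMSO, a flatter course than that of XBP1.

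HSPA5 was low at 16 h and high at 19 h, and at 22 h its total RNAPII was as high as at 19 h in the ATRi library. In Ser2 it had 16.7 RPM at 14 h. At 16, 19 and 22 h it then had 8.50, 31.1 and 24.0 RPM in ATRi cells, against 7.76, 28.3 and 15.1 RPM in DMSO cells. Both 16 h libraries lay below each of the other 5. Relative to the median gene of the library, HSPA5 in Ser2 stood at 1.00 at 14 h, at 0.511, 1.02 and 1.19 in ATRi cells and at 0.498, 0.976 and 0.851 in DMSO cells. In total RNAPII it had 20.8 RPM at 14 h. The ATRi libraries then held 19.5, 37.7 and 37.9 RPM, against 16.5, 40.8 and 22.5 RPM in the DMSO libraries. The 22 h library with ATRi was close to the 19 h libraries, and the 22 h library with DMSO was near that of 14 h.

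HSP90B1 followed the same course. Its Ser2 level was 22.8 RPM at 14 h, then 14.7, 43.5 and 36.1 RPM in ATRi cells, against 14.1, 39.8 and 28.4 RPM in DMSO cells. In total RNAPII it had 31.0 RPM at 14 h, then 24.5, 51.0 and 52.6 RPM with ATRi, against 22.6, 45.9 and 32.0 RPM with DMSO. The lowest values of either antibody were again both at 16 h. CALR had 11.5 RPM of Ser2 at 14 h, then 8.80, 23.4 and 17.6 RPM in ATRi cells, against 8.07, 21.9 and 15.1 RPM in DMSO cells. Its total RNAPII, 16.9 RPM at 14 h, did not dip at 16 h: the ATRi libraries held 20.5, 32.0 and 33.5 RPM, against 18.4, 31.9 and 19.1 RPM in the DMSO libraries.

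XBP1 and HERPUD1, the factor and the degradation component, peaked at 19 h in either treatment. XBP1 had 16.1 RPM of Ser2 at 14 h, then 12.8, 41.9 and 27.0 RPM in ATRi cells, against 9.75, 39.3 and 18.2 RPM in DMSO cells. In total RNAPII XBP1 had 22.1 RPM at 14 h, then 30.2, 54.0 and 46.1 RPM with ATRi, against 25.0, 59.8 and 27.0 RPM with DMSO. Its 19 h libraries were the highest with both antibodies. HERPUD1 had 22.4 RPM of Ser2 at 14 h, then 19.8, 52.0 and 33.7 RPM in ATRi cells, against 14.1, 49.7 and 25.2 RPM in DMSO cells. Its total RNAPII was 30.2 RPM at 14 h, then 42.5, 60.3 and 51.8 RPM with ATRi, against 30.1, 65.5 and 30.6 RPM with DMSO. HERPUD1 was already higher with ATRi than with DMSO at 16 h with both antibodies, as were XBP1, HSPA5, HSP90B1 and CALR. Of all genes, 63.4% were higher with ATRi at 16 h in total RNAPII and 65.6% in Ser2.

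SDF2L1 had the fewest reads of the 7 genes, and PDIA4 had the flattest course in Ser2. SDF2L1, the shortest span at 2038 bases, had 2.09 RPM of Ser2 at 14 h, then 2.098, 4.21 and 3.51 RPM in ATRi cells, against 1.36, 3.64 and 2.43 RPM in DMSO cells. Its total RNAPII was 3.55 RPM at 14 h, then 2.85, 7.71 and 7.31 RPM with ATRi, against 3.74, 7.53 and 4.15 RPM with DMSO. Its Ser2 value at 14 h rests on 38 reads and its total RNAPII value at 16 h with ATRi on 55 reads, the fewest with each antibody. PDIA4 had 11.6 RPM of Ser2 at 14 h, then 10.3, 15.3 and 15.6 RPM in ATRi cells, against 8.91, 13.4 and 12.9 RPM in DMSO cells. In total RNAPII PDIA4 had 12.4 RPM at 14 h, then 11.2, 20.5 and 22.3 RPM with ATRi, against 12.6, 20.2 and 15.9 RPM with DMSO. Relative to the median gene, PDIA4 alone of the 7 was lower in Ser2 at 19 h than at 16 h, at 0.504 and 0.622 in ATRi cells and at 0.462 and 0.572 in DMSO cells.

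**Figure D2:**
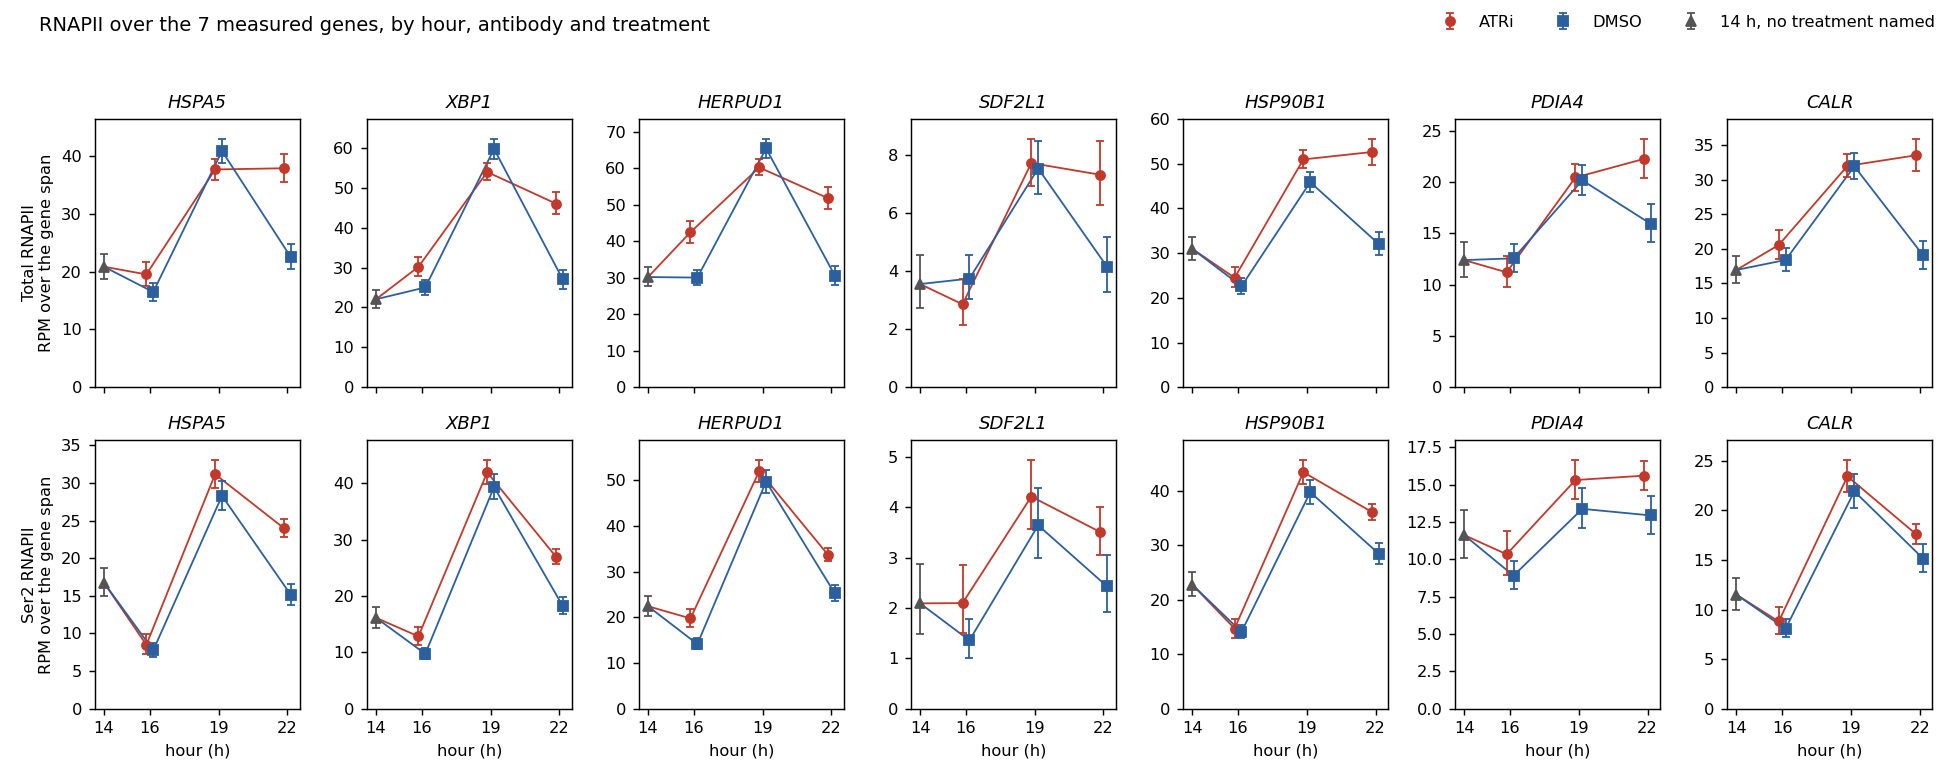
RNAPII over each of the 7 genes in RPM (vertical axes, from 0), by hour (horizontal axes), for total RNAPII (upper row) and Ser2 (lower row). Each point is 1 library (ATRi in red, DMSO in blue, 14 h in grey) with its 95% exact Poisson interval, which covers counting error only. HSPA5 in Ser2 is lowest in the 16 h libraries, at 8.50 RPM with ATRi and 7.76 RPM with DMSO, and at 22 h all 7 genes are higher with ATRi.

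**Figure D3:**
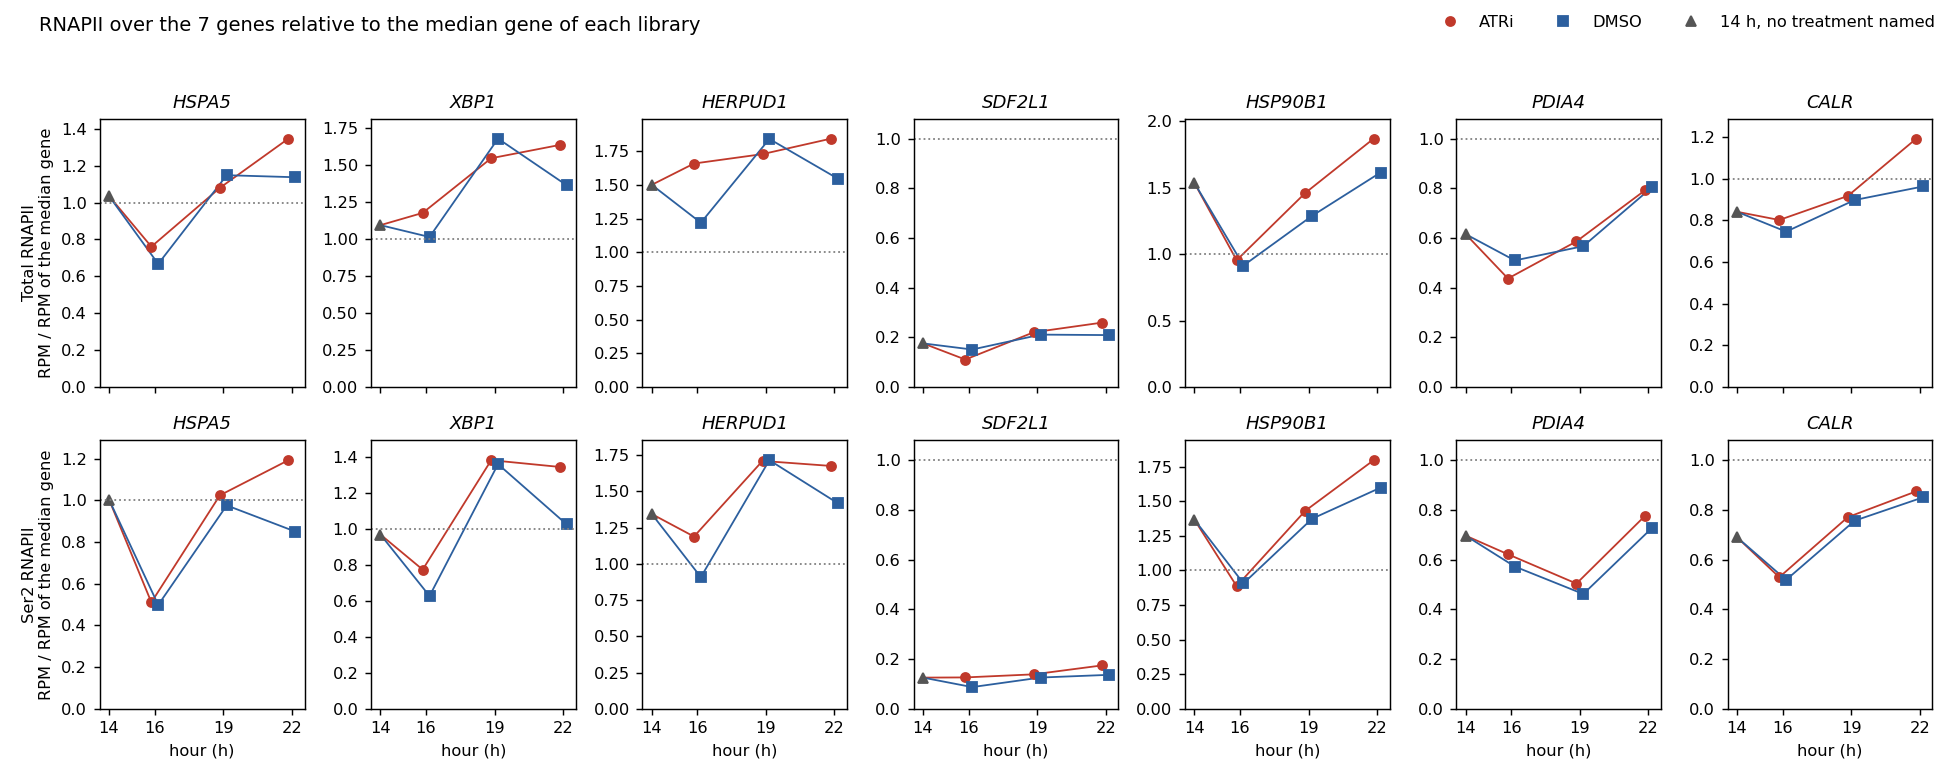
The same libraries with each gene divided by the median gene of its library (dotted line at 1), by hour, antibody (rows) and treatment (colours). HSPA5 in Ser2 dips to 0.511 with ATRi and 0.498 with DMSO at 16 h, and PDIA4 in Ser2 is lowest at 19 h, unlike the other genes.

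The comparison of 22 h with 16 h asked how RNAPII over these genes differed late in the time course, with the ATRi and DMSO libraries of an hour standing in for replicates. In Ser2 all 7 genes rose (limma, Benjamini-Hochberg adjusted p under 0.05), where 39% of 11989 genes tested were called higher and 0.918% lower. HSPA5 rose by 1.18 ± 0.12 on the log2 scale (moderated SE, adjusted p = 6.05e-06 by limma), a 2.27-fold change, and HSP90B1 by 1.13 ± 0.10 (limma adjusted p = 1.80e-06). XBP1 rose by 0.96 ± 0.11, CALR by 0.91 ± 0.10 and HERPUD1 by 0.78 ± 0.10, with limma adjusted p of 1.42e-05, 1.28e-05 and 4.78e-05. SDF2L1 rose by 0.64 ± 0.15 (limma adjusted p = 0.00274) and PDIA4 by 0.54 ± 0.10 (limma adjusted p = 0.000750). The median gene changed by 0.21. By size HSPA5 was 8th, HSP90B1 16th, XBP1 41st, CALR 63rd and HERPUD1 139th among the 11989 genes, with SDF2L1 421st and PDIA4 894th.

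The rise was seen in each treatment alone, as single ratios. Ratios of the 22 h to the 16 h library in Ser2 ran from 1.51 to 2.82 with ATRi (median gene 1.19). With DMSO they ran from 1.45 to 2.02 (median gene 1.12). All 7 counting intervals lay above 1 in either treatment. Of all genes, 81.2% had a ratio above 1 with ATRi and 81.7% with DMSO. HSPA5 had a ratio of 2.82 (95% interval 2.40 to 3.33) with ATRi and of 1.95 (1.68 to 2.26) with DMSO. After the libraries were centred on their median gene, 6 of the 7 genes were called higher by limma, against 10.2% of all genes called higher and 10.5% lower. SDF2L1 then missed the threshold, with an adjusted p of 0.0508 by limma. With the trend of change on read density removed, 6 were called again, against 4.88% of genes higher and 3.19% lower, and SDF2L1 had a limma adjusted p of 0.299. DESeq2 called 5 of the 7, without PDIA4 (DESeq2 adjusted p = 0.151) and SDF2L1, for which it gave no adjusted p.

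In total RNAPII the same comparison called 0 of the 7 genes and 0% of 12031 genes by limma. At an unadjusted p under 0.05 there were 72 higher and 283 lower genes, 4 of the 72 among the 7. edgeR with TMM called 0 genes, and DESeq2 called 24 higher and 26 lower with HSPA5 and HSP90B1 among the 24. The fitted changes were 0.79 ± 0.24 for HSP90B1, 0.69 ± 0.26 for HSPA5, 0.68 ± 0.29 for SDF2L1, 0.64 ± 0.28 for PDIA4, 0.37 ± 0.26 for CALR, 0.35 ± 0.25 for XBP1 and 0.15 ± 0.24 for HERPUD1 (log2), while the median gene changed by -0.06. HSP90B1 was the 8th largest of all genes by fitted change, HSPA5 the 15th, SDF2L1 the 18th and PDIA4 the 27th. With the density trend removed, limma called 6 of the 7 higher, against 4.08% of all genes called higher and 4.55% lower, and HERPUD1 was the exception (limma adjusted p = 0.141). In single pairs the 22 h to 16 h ratios ran from 1.22 to 2.56 with ATRi and from 1.02 to 1.42 with DMSO. The median gene had 1.10 and 0.837. Counting intervals lay above 1 for 7 genes with ATRi and for 3 with DMSO. Of all genes, 72.45% had a ratio above 1 with ATRi and 16.3% with DMSO.

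At 19 h against 16 h all 7 genes rose with either antibody on the deposited scale, beside a change over all genes. In Ser2 limma called the 7 higher, where 85.9% of genes were called higher and 5.67% lower and the median gene changed by 0.90. XBP1 and HSPA5 both rose by 1.81 (SE 0.11 and 0.12), HERPUD1 by 1.58 ± 0.10, HSP90B1 by 1.496 ± 0.10, CALR by 1.38 ± 0.10, SDF2L1 by 1.01 ± 0.15 and PDIA4 by 0.55 ± 0.10. After median centring, limma called XBP1, HSPA5, HERPUD1, HSP90B1 and CALR higher, against 35.4% of genes, and PDIA4 lower by 0.30, against 31.4%. SDF2L1 was then not called, at 0.15. With the density trend removed 3 of the 7 were called higher, against 16.7% of genes higher and 12% lower, namely HSPA5, XBP1 and HSP90B1.

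In total RNAPII limma called all 7 genes higher at 19 h than at 16 h, against 39.8% of genes called higher and 2.35% lower, with changes of 1.11 for HSPA5 and SDF2L1, 1.03 for XBP1, 1.02 for HSP90B1, 0.80 for HERPUD1, 0.75 for PDIA4 and 0.70 for CALR and 0.54 for the median gene. Centring left HSPA5, XBP1 and HSP90B1 called, against 3.75% of genes higher and 6.35% lower. With the density trend removed the same 3 were called, against 10.1% of genes higher and 9.38% lower. Ratios of the 22 h to the 19 h library in total RNAPII ran from 0.853 to 1.09 with ATRi (median gene 0.796) and from 0.452 to 0.789 with DMSO (median gene 0.533). Each of the 7 genes had the higher of its 2 ratios with ATRi in these single pairs, and so did the median gene (0.796 against 0.533). This order is therefore not particular to the 7 genes, and the share of all genes with it was not counted. The counting intervals of the ATRi ratios held 1 for 5 genes and lay below 1 for XBP1 and HERPUD1, and with DMSO all 7 lay below 1. Intervals were not counted over all genes, and the median gene was below 1 in either treatment.

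**Figure D4:**
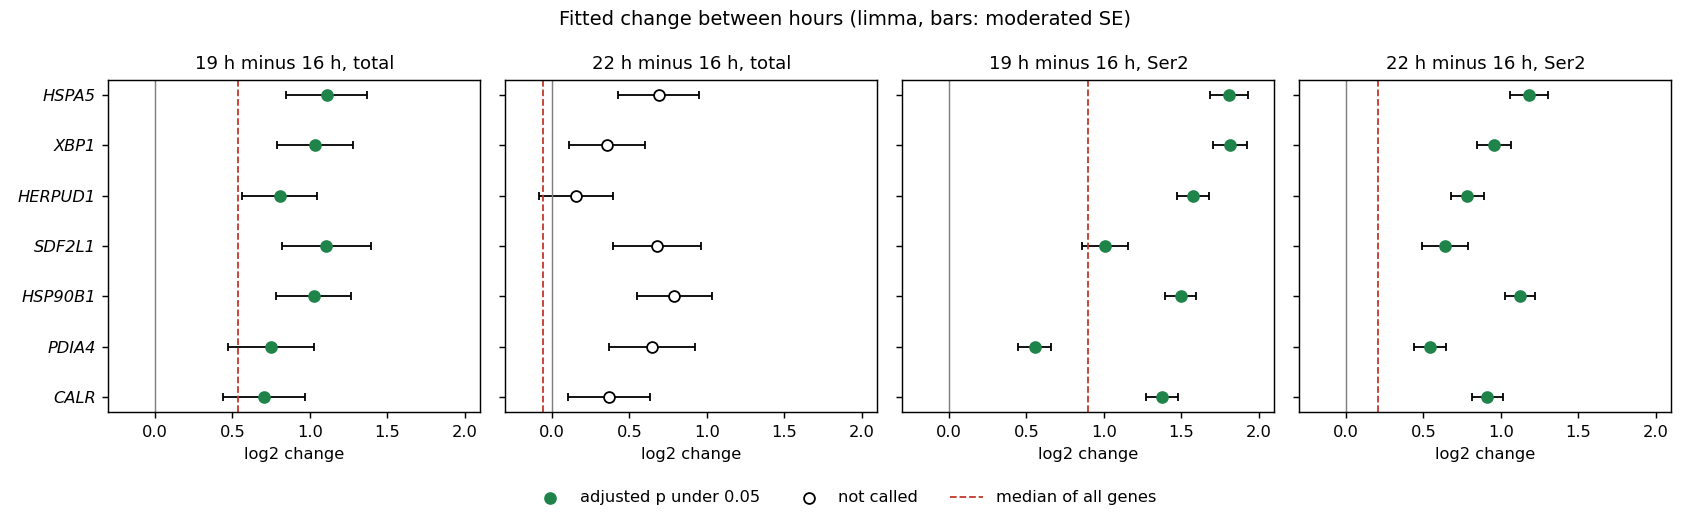
Change of each gene (log2, limma, with the moderated SE as bars) at 19 h and 22 h relative to 16 h, for total RNAPII and Ser2. The dashed line is the median of all genes in that fit, and filled points have an adjusted p under 0.05. In Ser2 at 22 h all 7 genes lie right of the median gene at 0.21, and at 19 h PDIA4 lies left of it.

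In Ser2 the 16 h libraries lay below the 14 h library for most of the 7 genes. The Ser2 ratios of 16 h ATRi to 14 h ran from 0.507 (HSPA5) to 1.00 (SDF2L1), with the median gene at 0.999, and those of 16 h DMSO to 14 h from 0.463 (HSPA5) to 0.767 (PDIA4), with the median gene at 0.956. In the DMSO pair 6 of 7 counting intervals lay below 1, the exception being SDF2L1 (0.649, 0.419 to 1.01). A Ser2 ratio above 1 was held by 35.0% of all genes in the DMSO pair and by 49.7% in the ATRi pair. For HSPA5 in the DMSO pair 99.9% of genes had a higher ratio. In total RNAPII the 16 h DMSO to 14 h ratios ran from 0.729 (HSP90B1) to 1.13 (XBP1), while the median gene had 1.20, and 0 of the 7 genes were above it. Those of 16 h ATRi to 14 h ran from 0.791 (HSP90B1) to 1.41 (HERPUD1), with the median gene at 1.251. XBP1 and HERPUD1 were above the median gene there, and 3 of the 7 intervals lay above 1 and 1 below. A total RNAPII ratio above 1 was held by 85.4% of all genes in the ATRi pair and by 86.9% in the DMSO pair. The intervals of all genes were not counted in these pairs. These pairs of single libraries have no replicate check, and the 14 h libraries are headed CTR with no treatment named.

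The ATRi to DMSO comparison asked whether the inhibitor moved RNAPII over these genes alike at 16, 19 and 22 h, with hour as a block. In total RNAPII limma called 0 of the 7 genes and 0% of all genes, and so did edgeR and DESeq2. Before adjustment, 204 genes were higher and 0 lower at p under 0.05 in limma, and 0 of the 7 were among them. The mean changes were 0.37 ± 0.20 for HERPUD1, 0.32 ± 0.20 for HSP90B1, 0.32 ± 0.22 for CALR, 0.29 for XBP1 and HSPA5 (SE 0.20 and 0.21), 0.15 ± 0.23 for SDF2L1 and 0.11 ± 0.23 for PDIA4 (log2), with the median gene at 0.18. The signs for SDF2L1 and PDIA4 turned when the libraries were centred on the median gene, to -0.03 and -0.06.

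In Ser2 limma again called 0 of the 7 genes and 0% of all genes, while 2630 genes were higher and 25 lower at p under 0.05 before adjustment. Of the 7, 6 were among these 2630, CALR being the exception. With median centring 632 genes were higher and 786 lower before adjustment, 4 of the 7 passing, and with the density trend removed 274 were higher and 129 lower, 1 of the 7 passing. edgeR called no gene, and DESeq2 called 16 lower and none higher, with no adjusted p for 10924 genes. XBP1 had a change of 0.34 ± 0.09 (limma adjusted p = 0.0845), HERPUD1 of 0.31 ± 0.09 (0.0889) and HSPA5 of 0.30 ± 0.10 (0.109). All 7 genes were higher in ATRi at 3 of 3 hours. Taken 1 hour at a time, 65.6%, 75.1% and 80.7% of all genes were higher at 16, 19 and 22 h. The share of all genes higher at all 3 hours was not counted. SDF2L1 had 0.37 ± 0.12, PDIA4 0.22 ± 0.09, HSP90B1 0.18 ± 0.08 and CALR 0.14 ± 0.08, and the median gene had 0.10. Without the 19 h libraries limma called HSPA5, XBP1 and HERPUD1 higher, at 0.38, 0.47 and 0.44, when 846 genes in all were called higher.

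Hour by hour, the ratios of single libraries were as follows. At 22 h all 7 genes had a higher level with ATRi and a counting interval above 1 with both antibodies. Of all genes, 88.9% had a higher level with ATRi in total RNAPII and 80.7% in Ser2. The total RNAPII ratios at 22 h were 1.76 for SDF2L1 and CALR, 1.70 for XBP1, 1.69 for HERPUD1, 1.68 for HSPA5, 1.64 for HSP90B1 and 1.3996 for PDIA4, while the median gene had 1.42. PDIA4 alone was below the median gene. The Ser2 ratios at 22 h were 1.58 for HSPA5 (95% interval 1.43 to 1.76), 1.48 for XBP1, 1.44 for SDF2L1, 1.33 for HERPUD1, 1.27 for HSP90B1, 1.21 for PDIA4 and 1.16 for CALR, against 1.12 for the median gene. For HSPA5, 0.750% of genes had a higher ratio.

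At 19 h the total RNAPII ratios ran from 0.903 (XBP1) to 1.11 (HSP90B1), with the median gene at 0.982. The intervals lay below 1 for XBP1, HSPA5 and HERPUD1 and above 1 for HSP90B1. A ratio above 1 was held by 40.4% of all genes there, whose intervals were not counted. The Ser2 ratios at 19 h ran from 1.05 (HERPUD1) to 1.16 (SDF2L1), with the median gene at 1.04. At 16 h the total RNAPII ratio of HERPUD1 was 1.41 (1.28 to 1.56), and 1.30% of genes had a higher one. XBP1 had 1.21 and HSPA5 1.18 with intervals above 1, and SDF2L1 had 0.763 (0.539 to 1.07). In Ser2 at 16 h the intervals of HERPUD1 (1.397, 1.22 to 1.60) and XBP1 (1.32, 1.12 to 1.55) lay above 1. A ratio above 1 at 16 h was held by 63.4% of all genes in total RNAPII and by 65.6% in Ser2.

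**Figure D5:**
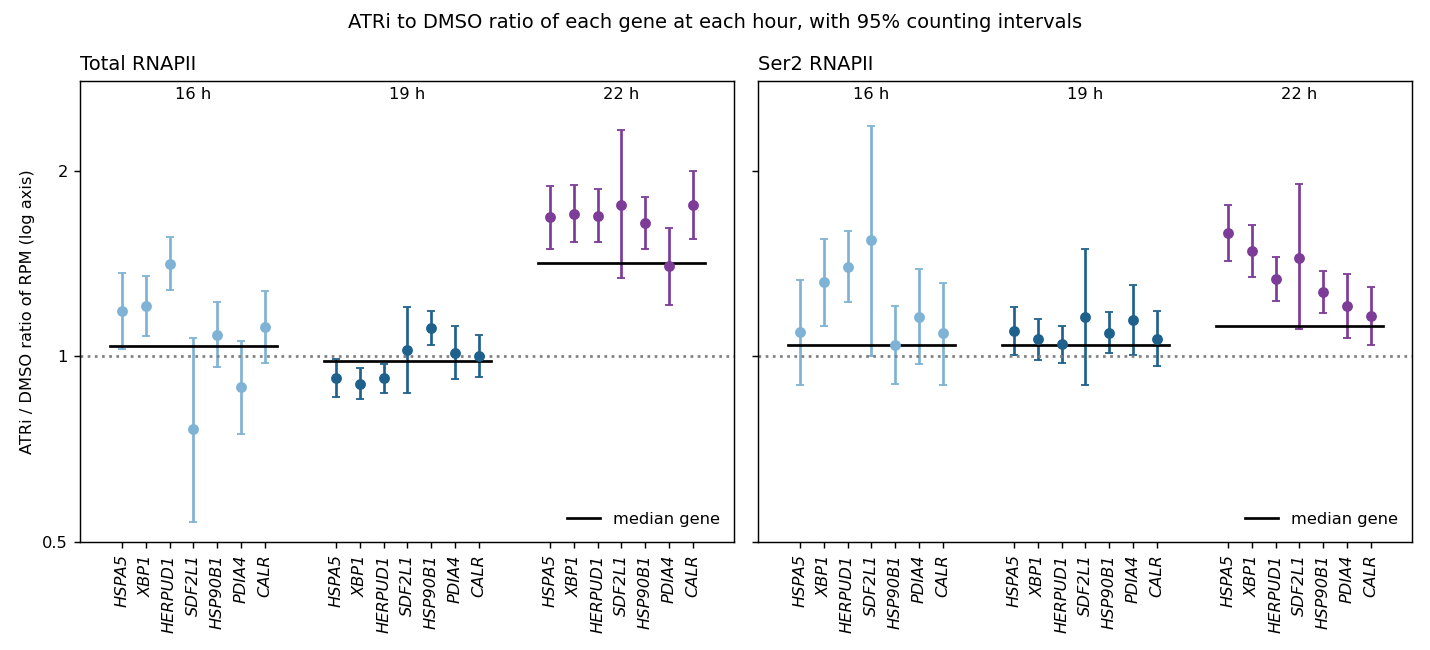
Ratio of ATRi to DMSO RPM for each gene at 16, 19 and 22 h (log axis), for total RNAPII (left) and Ser2 (right), with 95% counting intervals of each pair of single libraries. The black bars are the median gene. At 22 h all 7 genes lie above 1 with both antibodies, between 1.3996 and 1.76 in total RNAPII and between 1.16 and 1.58 in Ser2.

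Whether the ATRi to DMSO difference itself differed between 22 h and 16 h was tested over both antibodies. limma called 0 of the 7 genes and 0% of all genes, while 3068 genes were higher and 137 lower at p under 0.05 before adjustment, HSPA5 and HSP90B1 among the 3068. With median centring these counts were 1051 and 1375, with 0 of the 7 among them. edgeR called none, and DESeq2 8 higher and 21 lower. The difference was 0.53 ± 0.29 for SDF2L1, 0.51 ± 0.16 for HSPA5 (limma adjusted p = 0.136), 0.44 ± 0.15 for HSP90B1, 0.37 ± 0.20 for CALR, 0.34 ± 0.19 for PDIA4, 0.33 ± 0.15 for XBP1 and 0.10 ± 0.15 for HERPUD1, where the median gene had 0.25. For HERPUD1 it turned to -0.15 after median centring. With 19 h in place of 16 h, a contrast added after the data were seen, limma called 0 of the 7 genes and 98 genes higher in all. HSPA5 and XBP1 had 0.68 and HERPUD1 0.61 (limma adjusted p = 0.0621 each), with the median gene at 0.32. SDF2L1 had 0.49, CALR 0.46, HSP90B1 0.39 and PDIA4 0.26, with limma adjusted p between 0.102 and 0.301.

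Ser2 relative to total RNAPII was lower over these genes than over the median gene in most conditions. The ratio of Ser2 to total RPM had a median over the 7 genes of 0.737 at 14 h, where the median gene had 0.847. In ATRi cells the medians at 16, 19 and 22 h were 0.465, 0.777 and 0.634, with the median gene at 0.661, 0.888 and 0.725. In DMSO cells they were 0.470, 0.687 and 0.795, with the median gene at 0.659, 0.828 and 0.917. Between 5 and 7 of the 7 genes were below the median gene in each condition. XBP1 had the ratios 0.425, 0.777 and 0.586 with ATRi and 0.389, 0.658 and 0.674 with DMSO, and only 3.55% and 3.19% of genes had a lower one at 16 h. PDIA4 was at the upper end at 14 h with 0.938.

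The change between 22 h and 16 h was not called different between the antibodies for any of the 7 genes. limma called 0% of 12013 genes, while 433 genes were higher and 1 lower at p under 0.05 before adjustment, and 146 higher and 160 lower with median centring. Neither edgeR nor DESeq2 called a gene. The Ser2 minus total difference was 0.63 ± 0.28 for HERPUD1, 0.60 ± 0.29 for XBP1, 0.54 ± 0.27 for CALR, 0.49 ± 0.30 for HSPA5 and 0.33 ± 0.24 for HSP90B1, with limma adjusted p of 0.504 each, and the median gene had 0.29. SDF2L1 and PDIA4 had -0.04 ± 0.34 and -0.10 ± 0.25. The calls for Ser2 and their absence for total RNAPII thus do not show a difference between the antibodies. For ATRi the Ser2 minus total differences ran from -0.18 (CALR) to 0.23 (SDF2L1), and limma called 0 genes and 0%, while 4 genes were higher and 5 lower at p under 0.05 before adjustment. Neither of the other tools called one.

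Other genes of the pathway were examined by role for the 22 h to 16 h change in Ser2, beside 39% of all genes called higher (10.2% after median centring) and a median gene at 0.21. Of 16 ER chaperones and folding enzymes tested of 18 listed, 13 rose and none fell (6 rose after median centring), with a median of 0.38. The largest were HYOU1, an ER Hsp110 (0.87), PPIB, an ER prolyl isomerase that acts on collagen (0.76), and PDIA3, a disulfide isomerase that works with CALR (0.73). Of 13 genes (19 listed) for translocation into and export from the ER, 10 rose (5 after centring), with a median of 0.36, led by the translocon subunits SSR3 (0.91) and SEC61A1 (0.74) and the COPII coat gene SEC24D (0.79). Of 15 genes (16 listed) of ER-associated degradation, 8 rose (1 after centring), with a median of 0.28, led by SELENOS (0.57), the ubiquitin ligase SYVN1 (0.46) and FAF2 (0.35). Of the 5 sensors and processing enzymes (6 listed) 2 rose (none after centring), ERN1, which encodes IRE1, by 0.38 and ATF6 by 0.22. MBTPS2, a protease that cuts ATF6, had 0.27 and was not called (limma adjusted p = 0.0682).

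Of the 8 genes (12 listed) of the PERK and ATF4 arm 5 rose (2 after centring), with a median of 0.33. DDIT3, the factor CHOP, rose by 0.67, PPP1R15A, a phosphatase subunit that restores translation, by 0.55 and ATF4 by 0.47. Of 10 cytosolic heat shock genes (14 listed) 6 rose (1 after centring), with a median of 0.26, led by HSPA8 (0.59), HSP90AB1 (0.48) and BAG3 (0.44). None of these lists had a member called lower. The 7 genes themselves had a median of 0.91, but they had been named with results of these data known, so the distance from the other lists describes them and is no test.

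Across the 14 libraries, each centred on its median gene and each antibody on its mean, the 7 genes moved together to different degrees. Pearson's r over the 21 pairs ran from 0.02 (HERPUD1 with PDIA4) to 0.96 (XBP1 with HERPUD1), with a median of 0.72. The points share hours, treatments and depths, and at one hour the antibodies may share chromatin, so r is a description. PDIA4 had the lowest values, with 0.10 to XBP1 and 0.41 to HSPA5, and its highest was 0.74 to SDF2L1. The genes most like HSPA5 among 11999 were PDIA3 (r = 0.95), RPSAP52 (0.94), CANX (0.94), HSP90B1 (0.93) and FOXD4L1 (0.90), where the median gene had 0.03. PDIA3 and CANX encode partners in the folding of glycoproteins in the ER. CALR came 7th, XBP1 15th and HERPUD1 47th, SDF2L1 382nd and PDIA4 3394th. The profile most like the mean of the 7 was that of PDIA3 again (0.96), followed by CANX, RPSAP52, PPP1CC and FOXD4L1.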

How the data were processed

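RNAPII ChIP-seq of 14 libraries was analysed from the deposited table of RPM values (the authors' reads per 1000000 reads for each gene span, with no division by length). The submitters' processing notes name Bowtie2 (2.3.3.1), SAMtools (1.4) and the build hg38; the counting tool, duplicates and input are not given in the sources used here. The protocol text names histone antibodies only, so the RNAPII antibodies rest on the sample labels. All values were whole multiples of a step per library (tolerance 0.01 reads), so read counts behind the deposited RPM were recovered. A count of 3 reads, the limit that a count of 0 allows, was 0.0481 to 0.175 RPM, and exact Poisson intervals at 95% cover counting error only.

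Gene names came from span overlap with RefSeq genes of GRCh38 (mutual best Jaccard index of at least 0.8, or 0.5 with an end within 100 bp), which named 10718 of 12425 genes. The 7 matched members were accepted at 0.5 or more, and HSP90B1 had 0.744 with neither end within 100 bp. The 14 mitochondrial genes were left out.

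limma 3.58.1 (trend, two-sided, R 4.3.3) was fitted to log2(RPM + 0.5) of all genes averaging 1 RPM or more, adjusted over all of them by Benjamini-Hochberg at 0.05. Hours were blocks for ATRi, and treatments a term for hours. P-values measure the spread between these libraries only, since no replicate cultures are named. edgeR 4.0.16 and DESeq2 1.42.0 on the recovered reads were alternatives, as were other pseudocounts, filters and scalings and each hour left out. The fits were tested on simulated data. For pathway lists, the 3 largest called changes per list were named, or the largest others where fewer were called. For likeness, the 5 highest r were named. The members and lists were chosen with earlier results of these data known.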

Additional observations from a re-analysis of the deposited data

How the results depend on the processing

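Over 869 values of the 7 genes recomputed under alternatives, 766 kept their direction and stayed close to the main result. Close meant the same side of the threshold or, for a treatment alone, a value within the SE of the main one. All 7 Ser2 changes from 16 h to 22 h kept their direction. The number of the 7 genes called was 3 for ATRi in Ser2 without 19 h. For 22 h against 16 h in total RNAPII it was 6 with the trend on read density removed and 2 by DESeq2. For 19 h against 16 h it was 3 in total RNAPII with median centring, quantile normalization or the density trend removed, 2 by edgeR with TMM or DESeq2, and 3 in Ser2 with the density trend removed. Over all genes, 22 h against 16 h in Ser2 gave 1221 genes higher and 1262 lower with centring, against 4678 and 110 on the deposited scale, 1212 and 1104 with quantile normalization, 1160 and 911 by edgeR with TMM, 623 and 597 by DESeq2 and 585 and 382 with the density trend removed.

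Signs turned in 42 of the 869 values (log2), and the cause was not tested. For ATRi in total RNAPII, SDF2L1 and PDIA4 had -0.026 and -0.063 with centring, -0.0495 and -0.071 with quantile normalization, -0.14 and -0.026 with the density trend removed, -0.0104 and -0.065 by DESeq2, and -0.15 and -0.070 without 22 h. PDIA4 also had -0.059 by edgeR with TMM, and with the density trend removed HSPA5 had -0.015 and XBP1 -0.016. For ATRi in Ser2, CALR had -0.085 with that trend removed. For ATRi in Ser2 minus total, HERPUD1 had 0.0026 with centring, 0.015 with the density trend removed and 0.079 without 22 h, and CALR had 0.026 without 22 h. Without 16 h SDF2L1 had -0.072 and PDIA4 -0.021, and without 19 h HSPA5 had -0.10 and XBP1 -0.044. At 19 h against 16 h in Ser2, PDIA4 had -0.30 with centring, -0.32 with quantile normalization or edgeR with TMM, -0.35 by DESeq2 and -0.040 with the density trend removed, where SDF2L1 had -0.32 and CALR -0.049. In total RNAPII CALR had -0.013 with that trend removed. For 22 h against 16 h in Ser2 minus total, SDF2L1 had 0.018 with a pseudocount of 0.1 and 0.035 by edgeR on library totals, and with the density trend removed HSPA5 had -0.066, HSP90B1 -0.11 and CALR -0.016. For the ATRi difference at 22 h less that at 16 h, HERPUD1 had -0.15 with centring, -0.13 with quantile normalization, -0.34 with the density trend removed and -0.18 by edgeR with TMM or DESeq2, and XBP1 had -0.099 and CALR -0.077 with that trend removed.

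Over all genes, 19 h against 16 h gave 10294 genes higher and 680 lower in Ser2, and 4248 and 3770 with centring. In total RNAPII it gave 4791 and 283, and 451 and 764 with centring, while leaving out 22 h gave 9261 and 663. The labels give no replicate numbers. Without hour as the replicate block, limma called 0 of the 7 genes for ATRi with either antibody. Each group held 1 library, so the precision rests on the hours or treatments that stand in for replicates, and SDF2L1 had the fewest reads.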

Other observations

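Beyond the 8 genes, 15 named genes of the table carried ERSE or ERSE-II in the promoter window, and 10 of them rose in Ser2 at 22 h against 16 h (limma adjusted p under 0.05, 39% of all genes), 4 after median centring (10.2% of all genes higher and 10.5% lower). Their median change was 0.37 on the log2 scale. ZNF143 and ZNF143-AS1, with 1 ERSE-II each, were both among the 10. Whether genes of the 15 share a site was not examined, so they may not be separate elements. HYOU1, an ER chaperone with 2 ERSE-II, changed by 0.87. PLS3, an actin-bundling gene, changed by 0.73, FICD, which modifies BiP, by 0.56, and TMEM120A by 0.51. CRELD2, an ER protein induced by stress, had 0.26 (limma adjusted p = 0.0908), and ZNF17 had -0.08 and was not called. In total RNAPII none of the 15 was called by limma. The genes were found by sequence after the values of the 8 were known.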
